A study of Mus musculus with 21 samples.

Results

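Adipocyte RNA in mammary tumours was followed through 34 genes of fat cells. They comprised coat and fusion proteins of the lipid droplet, hormones secreted by fat, enzymes and receptors of lipolysis, transporters for fatty acids and glucose, enzymes of triglyceride synthesis and the thermogenic protein Ucp1. The genes were taken by symbol from the deposited tumour tables, and all 34 were found among the 19241 genes listed. The study, by its title, concerns physical activity and immunity to breast cancer, and it set tumours of physically active mice beside those of sedentary mice. The tumours came from MMTV-PyMT mice, in which a mouse mammary tumour virus promoter drives the polyoma middle T oncogene in mammary epithelium. All 4 groups carried that transgene: sedentary at week 12, active at week 12, sedentary at week 18 and active at week 18, with 3 biological replicates each. The labels give neither the mice's age apart from the week nor the form of activity, and whole tumour tissue was extracted, so any fat, muscle or lymph node taken with it was sequenced too.

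White adipocytes store triglyceride in 1 large droplet coated by perilipins and release fatty acids when catecholamines act on beta-adrenergic receptors. The nuclear receptor Pparg switches on most genes of the mature cell, among them those for adiponectin (Adipoq) and leptin (Lep). Mammary epithelium grows inside a fat pad, so that adipocytes surround the ducts and the tumours that start in them, and brown or beige adipocytes carry Ucp1, which makes mitochondria produce heat.

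Values are reads per gene divided by 1 factor per library, deposited in that form, and they are comparable across the 12 tumours but not per gene length. The libraries held 20838963 to 28973775 reads. Active week 12 replicate 3 stood apart before any comparison: it had the highest value of the 12 tumours for 33 of the 34 adipocyte genes, as for 26.3% of all genes, and these genes took 3.12% of its reads against 0.0669% to 0.723% in the other tumours. That library also carried lymphoid and endothelial RNA. All 8 T cell markers and all 8 B cell markers were highest there, with summed values of 10425 for the T cell list (96.8 to 387 elsewhere) and 24452 for the B cell list (58.5 to 191 elsewhere). Endothelial markers summed to 18795 (2646 to 6919 elsewhere), also with 8 of 8 highest there. Epithelial markers were lowest in that tumour for 7 of 8 genes, although Epcam was still at 6300.5 (15223 to 19139.5 elsewhere). Glycam1, a mucin of lymph node venules and of milk, reached 7884 against 0 to 44.3. Skeletal muscle markers followed another pattern: their sum was 71833 to 158405 in the sedentary week 12 tumours, 414 to 1710.1 in the active week 12 tumours and 537 to 21219 at week 18. The part of lymph node, muscle or fat pad tissue in the results was not tested. The medians over the 34 genes are also given without active week 12 replicate 3 in the comparisons that it entered.

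Among the genes whose ratio to Adipoq varied less than 5-fold over the 12 tumours were Plin1, Cidec, Lep and Cfd. Their proximal promoters and that of Adipoq are shown, because Pparg and the C/EBP factors are the textbook regulators of such genes. They come from RefSeq (GRCm38.p6) and run from 250 bases before to 50 bases after a transcription start, 5′ to 3′ on the gene's strand, with matches to the C/EBP letters TTGCNNAA (either strand) in capitals. Of the 34 genes, 23 had an entry, with 33 starts in all.
Plin1, chr7:79732727-79733026, minus strand: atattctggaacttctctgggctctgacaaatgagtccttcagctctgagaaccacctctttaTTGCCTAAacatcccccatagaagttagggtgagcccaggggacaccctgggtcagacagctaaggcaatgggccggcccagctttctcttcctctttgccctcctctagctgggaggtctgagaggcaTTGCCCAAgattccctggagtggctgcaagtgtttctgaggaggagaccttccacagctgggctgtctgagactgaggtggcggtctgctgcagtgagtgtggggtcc
Cidec, chr6:113434715-113435014, minus strand: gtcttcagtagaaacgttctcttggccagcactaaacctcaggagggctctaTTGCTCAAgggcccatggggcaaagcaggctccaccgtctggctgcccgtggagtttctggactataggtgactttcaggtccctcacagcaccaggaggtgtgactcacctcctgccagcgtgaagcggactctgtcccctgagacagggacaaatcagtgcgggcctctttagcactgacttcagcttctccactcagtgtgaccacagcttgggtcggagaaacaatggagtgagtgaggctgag
Lep, chr6:29059971-29060270, plus strand: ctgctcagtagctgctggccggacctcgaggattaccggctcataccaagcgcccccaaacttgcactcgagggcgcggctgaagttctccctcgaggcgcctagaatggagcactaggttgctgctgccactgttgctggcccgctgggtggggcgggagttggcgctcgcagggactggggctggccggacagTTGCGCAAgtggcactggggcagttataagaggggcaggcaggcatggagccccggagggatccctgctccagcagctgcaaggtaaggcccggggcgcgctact
Adipoq, chr16:23146286-23146585, plus strand: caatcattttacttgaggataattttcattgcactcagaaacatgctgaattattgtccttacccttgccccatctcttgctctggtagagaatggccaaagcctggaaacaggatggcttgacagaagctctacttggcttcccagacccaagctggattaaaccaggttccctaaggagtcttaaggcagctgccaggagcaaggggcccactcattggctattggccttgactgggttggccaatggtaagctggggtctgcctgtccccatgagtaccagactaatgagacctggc
Cfd, chr10:79890603-79890902, plus strand: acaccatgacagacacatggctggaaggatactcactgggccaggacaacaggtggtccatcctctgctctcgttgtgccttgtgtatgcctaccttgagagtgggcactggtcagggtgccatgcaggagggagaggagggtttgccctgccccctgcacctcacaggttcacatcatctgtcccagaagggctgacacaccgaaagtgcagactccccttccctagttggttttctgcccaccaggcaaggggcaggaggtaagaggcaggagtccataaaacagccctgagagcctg
Plin1 held 2 matches, Cidec and Lep held 1 each, and these windows of Adipoq and Cfd held none. Cidec has another start, at the 5′ end of the gene position given below, and its window (chr6:113435711-113436010, not shown) held none. The window shown for Cidec belongs to a start inside the gene. The letters occurred at 5 of the 33 starts (15.2%), belonging to Cidec, Lep, Plin1, Pparg and Rbp4, and at 10.8% of all 32851 promoters, so the share among the adipocyte genes was near the background. The direct repeat bound by Pparg, written loosely as AGGNCA 2 times with any 1 base between (either strand), occurred in 0 of the 33 windows and in 0.381% of all promoters. The motifs were chosen after the sequences had been seen, and a match is a run of letters, not a measured binding site.

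Adipocyte transcripts varied widely from tumour to tumour within 3 of the 4 groups. Over the 12 tumours the highest value exceeded the lowest by over 100-fold for 18 of the 34 genes, by 10- to 100-fold for 12 and by less than 10-fold for 4 (Gpd1, Agpat2, Dgat1 and Thrsp). These counts were 12, 11 and 11 without active week 12 replicate 3. For Aqp7, Mrap and Ucp1 the lowest value was 1 or 2 reads, so their folds are uncertain. In whole tumour RNA, fewer adipocytes and less RNA per adipocyte cannot be told apart. Within groups, the sedentary week 12 tumours were closest to each other, with a median ratio of highest to lowest replicate of 1.55 over the 34 genes. That ratio was 22.1 in the active week 12 tumours, 11.8 in the sedentary week 18 tumours and 3.07 in the active week 18 tumours.

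**Figure D1:**
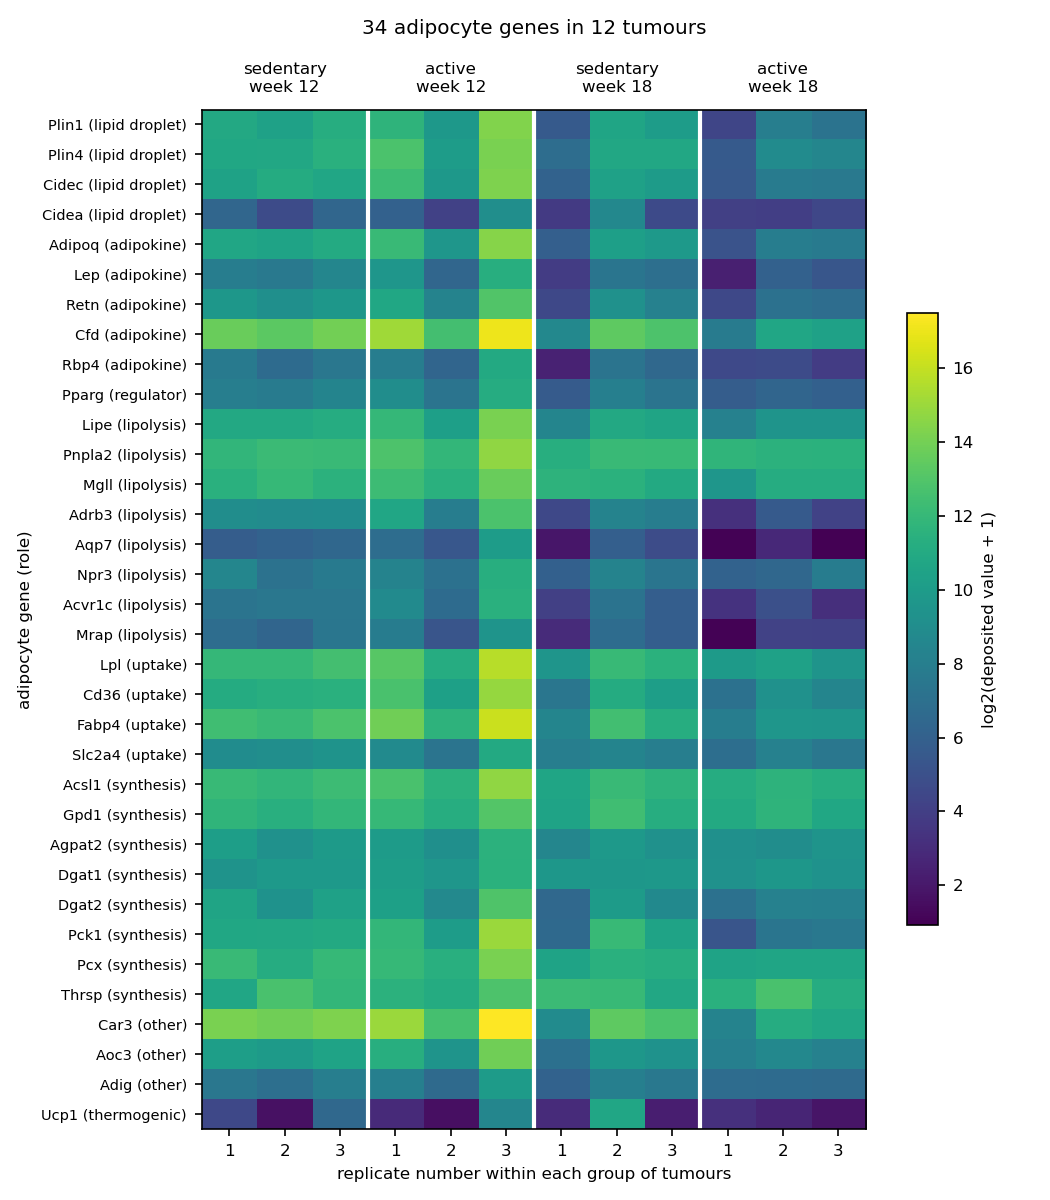
Heat map of log2(deposited value + 1) for the 34 adipocyte genes (vertical axis, with role) in the 12 tumours (horizontal axis, replicates within group). Active week 12 replicate 3 is the brightest column for 33 genes, while replicate 1 of both week 18 groups is dark for most storage and hormone genes and not for Gpd1, Dgat1 or Thrsp.

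The first group of genes encodes proteins that fat secretes. Adipoq encodes adiponectin, a hormone made almost only by adipocytes (chr16:23146536-23158028 in mm10, as for all gene positions here, plus strand). Its values were 1675, 1502 and 2153 in the sedentary and 4462, 781 and 22796 in the active week 12 tumours. At week 18 they were 60.3, 1243 and 909 in sedentary and 34.3, 244 and 205 in active tumours. The active week 12 replicates lay on both sides of the sedentary ones, and the groups overlapped at each week. The group means of Adipoq were 1777 ± 337 (SD, n = 3), 9347 ± 11792 (SD, n = 3), 737 ± 609.6 (SD, n = 3) and 161 ± 111 (SD, n = 3) in the same order, so that in the active week 12 group the SD exceeded the mean. Lep, the satiety hormone leptin (chr6:29060220-29073877, plus strand), stood at 241, 192 and 360.2 in sedentary and 789.9, 82.4 and 2556 in active tumours at week 12. At week 18 Lep was 13.4, 164 and 127 in sedentary and 4.16, 64.7 and 39.2 in active tumours. The lowest leptin value rested on 4 reads. Cfd, the complement protease adipsin, was the most abundant of the 34 genes per kilobase of exon, with a median of 9685 over the 12 tumours. Its values were 13123, 10328 and 15880.4 in sedentary and 35309.8, 5973 and 139572 in active tumours at week 12, and at week 18 395, 10424 and 7531 in sedentary against 228, 1711 and 1361 in active tumours. Retn, which encodes resistin, ran from 21.8 to 8297, and its extremes lay in the same tumours as those of Adipoq. Rbp4, the retinol carrier, had its lowest value of 4.79 in sedentary week 18 replicate 1 and was 22.9, 25.4 and 13.4 in the active week 18 tumours.

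Genes of the lipid droplet followed the hormones, apart from Cidea. Plin1, the perilipin that guards the adipocyte droplet (chr7:79720218-79732903, minus strand), had values of 1938, 1326 and 2409 in sedentary and 3272, 847 and 20847 in active tumours at week 12. At week 18 Plin1 was 48.8, 1583 and 1061 in sedentary and 19.8, 254 and 151 in active tumours. It had a highest value 1055 times its lowest, against 664 times for Adipoq. Cidec, the droplet fusion protein of white fat (chr6:113424634-113435760, minus strand), was 1416, 2247 and 1666 in sedentary and 4872, 851 and 20347 in active tumours at week 12. At week 18 it was 69.9, 1343 and 1035 in sedentary and 45.8, 228 and 193 in active tumours. The 3 active week 18 values of Cidec all lay below the 3 sedentary week 12 values. Plin4, which coats nascent droplets and is also made in muscle (chr17:56100591-56109803, minus strand), was 1757, 1891 and 2766 in sedentary against 6985, 1089 and 17952 in active tumours at week 12. At week 18 Plin4 was 114, 1843 and 1832 in sedentary against 48.9, 470.3 and 363 in active tumours. Cidea, the relative of Cidec that marks brown fat, was high in 2 tumours of different groups, at 552 in active week 12 replicate 3 and 396 in sedentary week 18 replicate 2. In the remaining 10 tumours Cidea lay between 12.4 and 83.3.

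**Figure D2:**
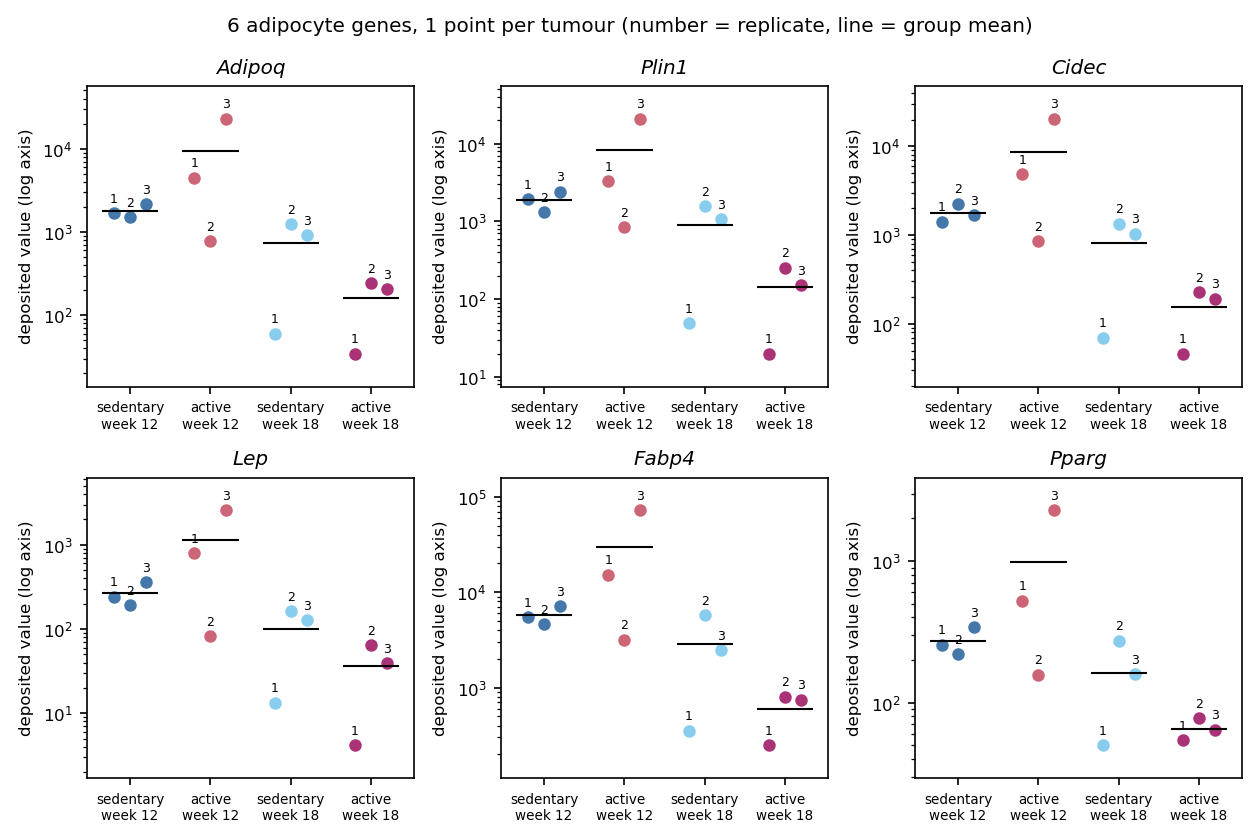
Deposited values on log axes for Adipoq, Plin1, Cidec, Lep, Fabp4 and Pparg, with 1 point per tumour numbered by replicate and a line at the mean of each group of 3. In each panel active week 12 replicates 1 and 3 lie above and replicate 2 below the sedentary week 12 points, and replicate 1 is the lowest of each week 18 group.

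Pparg, the nuclear receptor that governs adipocyte differentiation (chr6:115360951-115490399, plus strand), ranged 45.8-fold from lowest to highest tumour, less than Adipoq, Lep or Plin1. Its values were 256, 219 and 339.7 in sedentary and 524, 158 and 2279 in active tumours at week 12. At week 18 they were 49.8, 273 and 159 in sedentary and 54.1, 77.8 and 64.2 in active tumours. Relative to 100 of Adipoq, Pparg went from 9.999 in active week 12 replicate 3 to 158 in active week 18 replicate 1, the tumour with the least Adipoq. Macrophages and some epithelial cells also make Pparg, and the 8 macrophage markers summed to 8296 to 18006 across the tumours.

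Lipolysis genes split into those that tracked the fat hormones and those that did not. Adrb3 encodes the beta-3 adrenergic receptor, through which noradrenaline starts lipolysis in mouse fat. It was 523, 486 and 497 in sedentary and 1692, 247 and 6981 in active tumours at week 12, the sedentary replicates differing by 1.08-fold. At week 18 Adrb3 was 22.0, 327 and 249.8 in sedentary and 8.32, 48.1 and 16.9 in active tumours. Aqp7, the glycerol channel, was 2.87, 60.7 and 25.8 in sedentary and 1.04, 6.12 and 0.891 in active week 18 tumours, the last group holding 1 to 7 reads per library. Acvr1c, the activin receptor ALK7 that restrains lipolysis, was 157, 181 and 175 in sedentary and 464, 104 and 2776 in active tumours at week 12. At week 18 it was 15.3, 148 and 57.5 in sedentary and 9.36, 30.6 and 8.02 in active tumours. Mrap, the partner that carries the corticotropin receptor to the surface, spanned 1.04 to 715. Lipe, hormone-sensitive lipase (chr7:25379527-25398710, minus strand), was 1940.1, 1943 and 2268 in sedentary and 3979, 1226 and 17881 in active tumours at week 12. At week 18 Lipe was 346, 1947 and 1551 in sedentary and 295, 726 and 718 in active tumours. Pnpla2, the triglyceride lipase that acts first, is found in many tissues, and it kept 2560.1 or more in every tumour, with 3486, 3008 and 2910.3 in the active week 18 group. Mgll, the lipase that acts last, ranged from 776 to 13126, and the natriuretic peptide clearance receptor Npr3 from 62.2 to 2549.

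Uptake genes were led by Fabp4, the fatty acid binding protein of adipocytes, which capillary endothelium and macrophages also make (chr3:10204088-10208576, minus strand). Fabp4 was 5483, 4604 and 7121 in sedentary and 15187, 3163 and 71994 in active tumours at week 12. At week 18 it was 354, 5765 and 2448 in sedentary and 248, 806 and 747 in active tumours. Sedentary and active tumours overlapped at both weeks for Fabp4. Cd36, the fatty acid translocase, spanned 135 to 29707, and Lpl, the lipase that frees fatty acids from lipoproteins, 721 to 53534. Slc2a4, the insulin-dependent glucose transporter of fat and muscle, was 506, 563 and 679 in sedentary and 466, 154 and 2044 in active tumours at week 12. It was the only one of the 34 genes whose mean log2 level at week 12 was lower in the active tumours. The muscle markers summed to 158405, 71833 and 112318 in the sedentary week 12 replicates 1, 2 and 3, and their part in the Slc2a4 values was not tested.

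Synthesis genes held most of the genes that scarcely followed the fat hormones. Dgat1, which completes triglycerides in many tissues, stayed within 634 to 2852, and at week 18 it was 836, 834 and 848 in sedentary and 634, 815 and 670.3 in active tumours. Thrsp, a lipogenic protein that secretory mammary epithelium also makes, was 1682, 6732 and 3812 in sedentary and 3002, 2238 and 7468 in active tumours at week 12. Its highest and second-highest tumours differed by only 1.11-fold. Gpd1, which makes the glycerol backbone, and Agpat2, an acyltransferase whose loss causes lipodystrophy, ranged 5.77-fold and 8.43-fold from lowest to highest tumour. Dgat2, the droplet-associated counterpart of Dgat1, ran from 89.0 to 7631. Pck1, which supplies glycerol for storage in fat, was by contrast among the most variable, at 1755, 1872 and 2015 in sedentary and 3809, 1096 and 33192 in active tumours at week 12. At week 18 Pck1 was 94.8, 4437 and 1494 in sedentary and 38.5, 163 and 188 in active tumours. The acyl-CoA ligase Acsl1 ranged from 1606 to 26731 and pyruvate carboxylase (Pcx) from 1471 to 18439. Of the remaining genes, Car3, a carbonic anhydrase abundant in fat and slow muscle (chr3:14863512-14872523, plus strand), was 18453, 15472 and 20346 in sedentary and 32274, 6114 and 183886 in active tumours at week 12. At week 18 Car3 was 483, 10515 and 7097 in sedentary and 317, 2356 and 1676 in active tumours. The amine oxidase Aoc3 ranged from 133 to 15142, and the adipogenin gene Adig from 68.0 to 1013.

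Ucp1, the uncoupling protein of brown and beige fat (chr8:83290352-83298452, plus strand), did not follow the other adipocyte genes. Its values were 21.6, 2.11 and 91.7 in sedentary and 6.38, 2.06 and 361 in active tumours at week 12. At week 18 they were 6.70, 1671 and 3.97 in sedentary and 8.32, 5.25 and 2.67 in active tumours. Sedentary week 18 replicate 2 had the most Ucp1, more than active week 12 replicate 3 with its much larger amount of Adipoq. Against 100 of Adipoq, Ucp1 stood at 134 in sedentary week 18 replicate 2 and had a median of 1.44 over the 12 tumours. The elongase Elovl3, another gene of brown fat, was 0.957, 65.8 and 0 in the sedentary week 18 tumours and 0.911, 0 and 26.8 in the active week 12 tumours, against 0 to 4.37 in the other groups. Cox8b, a respiratory subunit of brown fat and muscle, was 11.5, 232 and 27.8 in sedentary week 18 tumours. In the active week 12 tumours Cox8b was 100.2, 38.1 and 516. Per 100 of Adipoq, Cox8b was 18.6 in sedentary week 18 replicate 2 and 19.0 in sedentary week 18 replicate 1. It was 27.3, 31.2 and 15.7 in the active week 18 tumours. On the same scale Elovl3 was highest in sedentary week 18 replicate 2, at 5.29. Otop1 and Dio2, also thermogenic genes, were 16.2 and 25.2 there, against 203 and 283 in sedentary week 18 replicate 1. Sedentary week 18 replicate 2 was the highest of the 6 week 18 tumours for 31 of the 34 adipocyte genes, as for 19.1% of all genes. The 13 muscle markers summed to 537, 15724 and 7232 in the sedentary week 18 tumours, and their part in the Cox8b values was not tested.

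**Figure D3:**
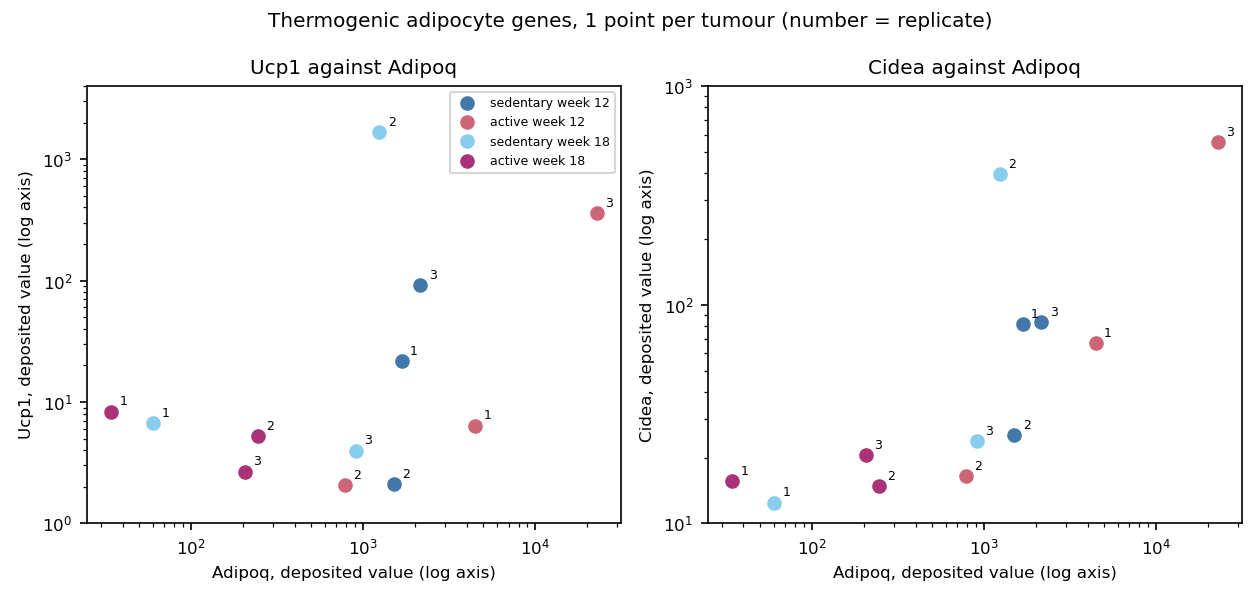
Ucp1 (left) and Cidea (right) against Adipoq as deposited values on log axes, 1 point per tumour coloured by group and numbered by replicate. Sedentary week 18 replicate 2 has the highest Ucp1 at a middling Adipoq, and for Cidea only that tumour and active week 12 replicate 3 lie far above the others.

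Setting each gene against Adipoq in the same tumour separated genes that kept proportion from genes that did not. For 11 of the 34 the ratio to Adipoq varied less than 5-fold over the 12 tumours: Plin1, Plin4, Cidec, Lep, Retn, Cfd, Adrb3, Mrap, Cd36, Fabp4 and Car3. Cfd varied least, from 612 to 839 per 100 of Adipoq, while Adipoq itself varied 664-fold. Car3 varied from 723 to 1102 and Plin1 from 57.6 to 127 per 100 of Adipoq. For 10 of the 34 the ratio varied more than 50-fold: Pnpla2, Mgll, Acsl1, Gpd1, Agpat2, Dgat1, Pcx, Thrsp, Adig and Ucp1. Gpd1 was 37.8 per 100 of Adipoq in active week 12 replicate 3 and 5924 in active week 18 replicate 1. Other cell types of the tumour also make most genes of the second set, and the contribution of each was not tested. Adig is best known from fat, yet it was still 68.0 in sedentary week 18 replicate 1, where Adipoq was 60.3. Without active week 12 replicate 3, 11 genes stayed under 5-fold and 7 went over 50-fold. These ratios share Adipoq and the library and are given as a description.

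**Figure D4:**
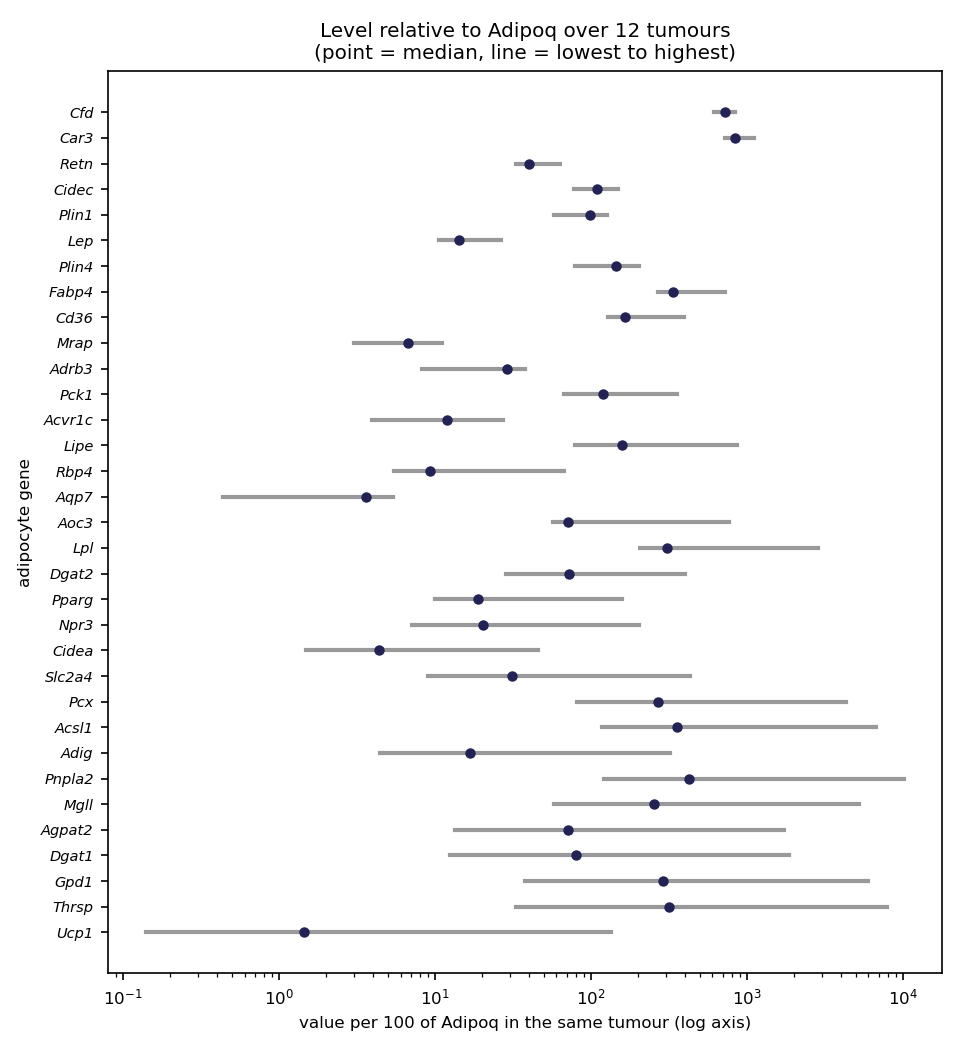
Each adipocyte gene's value per 100 of Adipoq in the same tumour (log axis), with the median over 12 tumours as a point and lowest to highest as a line, ordered by spread. Cfd, Car3, Retn, Cidec and Plin1 have the narrowest lines, and Ucp1, Thrsp, Gpd1, Dgat1 and Agpat2 the widest.

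At week 12 the active tumours lay on both sides of the sedentary ones, replicates 1 and 3 with more and replicate 2 with less fat RNA, and no adipocyte gene passed the test. None of the 34 passed limma's test (log2(value + 1), 3 against 3 tumours, Benjamini-Hochberg over 19162 genes, threshold 0.05), where 0.517% of all genes did, and none had an unadjusted p under 0.05. EdgeR and DESeq2 on the recovered reads called 0 of the 34 as well. An unadjusted p under 0.05 came from edgeR for 2 of them (4.14% of all genes) and from DESeq2 for 22 (6.91% of all genes). In limma's test 4.09% of all genes had one. The limma estimates were positive for 33 of 34 (51.7% of all genes), with a median log2 difference of 1.10 against 0.01 for all genes. Replicate 1 lay above all 3 sedentary tumours for 26 of the 34 genes (25.1% of all genes) and replicate 3 for 34 (37.7% of all genes). Replicate 2 lay below all 3 for 30 (25.2% of all genes). No gene was higher in every active than in every sedentary tumour, whereas 4.36% of all genes were. Adipoq was 1.29 (SE 1.22, limma adjusted p = 0.970), Plin1 1.07 (SE 1.17), Cidec 1.33 (SE 1.15), Lep 1.11 (SE 1.27) and Plin4 1.30 (SE 1.04). Fabp4 was 1.42 (SE 1.13), Pparg 1.10 (SE 0.97), Lipe 1.12 (SE 0.97), Car3 0.88 (SE 1.22) and Ucp1 0.11 (SE 2.19), and limma's adjusted p for the 34 genes ran from 0.970 to 0.999. Without active week 12 replicate 3 the median was 0.04, 20 of 34 estimates were positive, and Plin1, Car3 and Ucp1 turned to -0.14, -0.36 and -1.97. Endothelial markers had 8 of 8 estimates positive at week 12, with a median of 0.99 and 0 called, or 7 of 8 and 0.44 without that tumour. Muscle markers had 13 of 13 negative, with a median of -7.36 and 12 called lower, or -7.03 and 2 called without that tumour. Their part in the result was not tested. In the authors' deposited table, 0 of the 34 passed at an adjusted p of 0.05, all 34 log2 fold changes were positive, and the lowest adjusted p was 0.423, for Acvr1c.

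At week 18, most adipocyte genes had lower estimates in active than in sedentary tumours, and none passed the test. Limma called 0 of 34, and 0% of all 18939 genes tested (1131 genes had an unadjusted p under 0.05; edgeR called 0 genes and DESeq2 52, with no adipocyte gene among them). The median log2 difference was -1.15, with 32 of 34 estimates negative, against 0.01 and 48.9% negative for all genes. None of the 34 had an unadjusted p under 0.05 in limma's test (5.97% of all genes). EdgeR gave one to 2 of the 32 that it tested (6.00% of all genes). DESeq2 gave one to 12 of the 32 to which it gave a p (7.22% of all genes). Adipoq was -1.76 (SE 1.40, limma adjusted p = 0.826), Plin1 -2.23 (SE 1.64), Cidec -1.86 (SE 1.32), Lep -1.49 (SE 1.35) and Plin4 -1.83 (SE 1.44). Fabp4 was -1.69 (SE 1.12), Pparg -0.99 (SE 0.64), Lipe -0.92 (SE 0.77), Car3 -1.61 (SE 1.42) and Ucp1 -2.74 (SE 2.32), and limma's adjusted p ran from 0.824 to 0.986. Sedentary replicates 2 and 3 exceeded all 3 active tumours for 27 of the 34 genes (14.6% of all genes). Sedentary replicate 1 lay below all 3 active tumours for 11 of the 34, a share of 32.4% against 29.7% of all genes. Dgat1 alone was lower in every active than in every sedentary tumour, as 7.57% of all genes were. The labels number the biological replicates and do not say that same-numbered tumours of both groups belong together. Taking them as pairs was decided from weak correlations in these same data, so the pairs are given as a description only. Within those pairs 19 of the 34 genes were lower in the active tumour of all 3, as 16.8% of all genes were. Of the 34 genes, 21 were lower in the active tumour of pair 1, 33 in that of pair 2 and 30 in that of pair 3. The sedentary value of Adipoq was 1.76, 5.09 and 4.43 times the active one in pairs 1, 2 and 3. For Plin1 these ratios were 2.47, 6.22 and 7.04, for Adrb3 2.65, 6.80 and 14.8 and for Lep 3.22, 2.53 and 3.24. In pair 1 the active value rested on 8 reads for Adrb3 and 4 for Lep. Other genes went the opposite way in pair 1, such as Rbp4 with a ratio of 0.21 and Lpl with 0.76. Pair 1 held the 2 tumours with the least fat RNA, and its difference was the smallest of the 3 for Adipoq, Plin1 and Adrb3. Without sedentary replicate 1 the median over the 34 genes was -2.41 and Adipoq was -3.13 (SE 0.96, limma adjusted p = 0.655), and without sedentary replicate 2 they were -0.46 and -0.96. Sedentary replicate 1 also differed in milk secretion and macrophage markers. Milk secretion genes summed to 13154 there (193539 and 277794 in sedentary replicates 2 and 3) and macrophage markers to 8296 (17014 and 17291). Its endothelial markers, at 2994, lay between those of replicates 2 and 3 (3759 and 2899). The part of these differences in the estimates was not tested. Muscle markers had 13 of 13 estimates positive at week 18 (median 1.18), epithelial markers 8 of 8 positive (0.23) and stromal progenitor markers 9 of 12 negative (-0.71), with 0 called in each list, and their part in the result was not tested. The authors' deposited table also had 0 of 34 genes past an adjusted p of 0.05 at week 18, with 33 negative log2 fold changes and a lowest adjusted p of 0.290, for Adrb3.

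**Figure D5:**
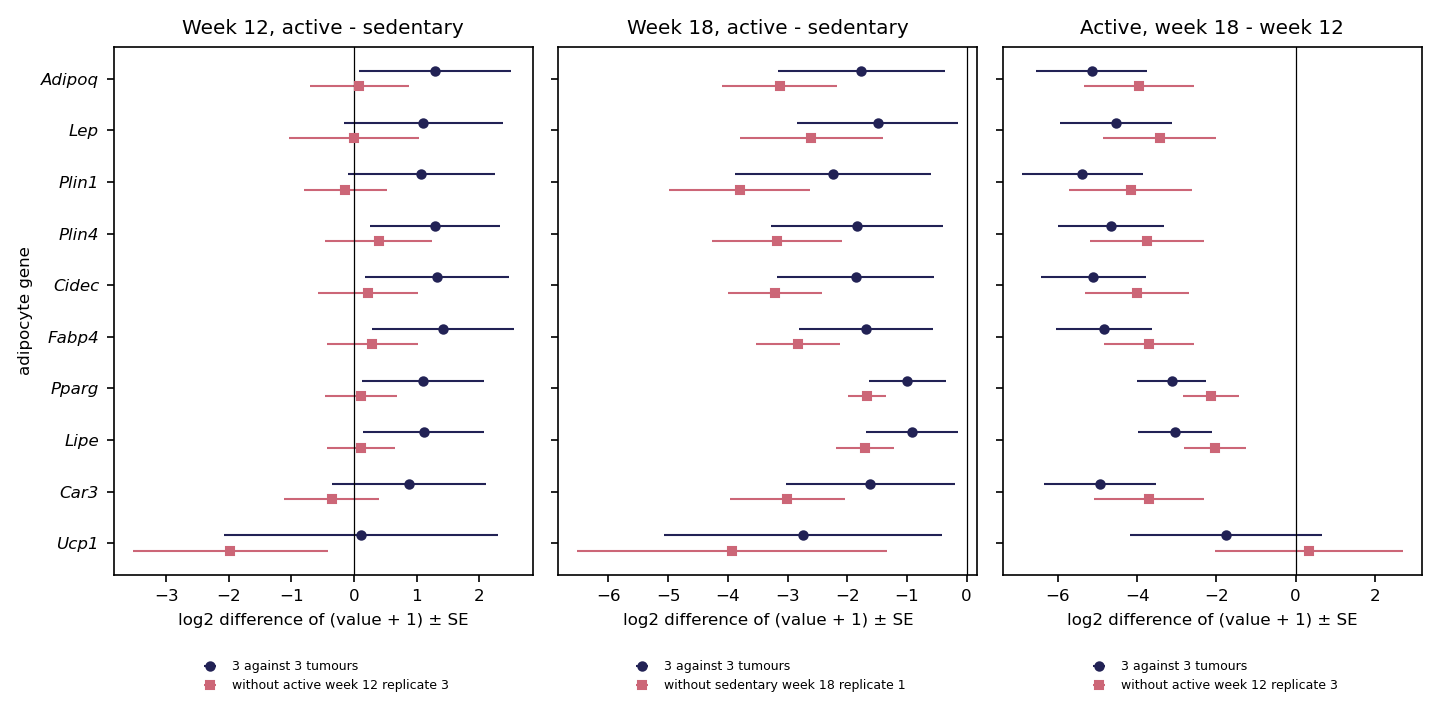
Log2 difference of (value + 1) with its standard error for 10 adipocyte genes: active minus sedentary at week 12 and at week 18, and week 18 minus week 12 in active tumours. Circles use 3 against 3 tumours and squares leave out the named tumour, and the week 12 estimates then move toward 0 or below it, and the week 18 minus week 12 estimates stay negative for all but Ucp1.

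The median activity estimates at week 12 and week 18 had opposite signs, and the difference between the weeks was tested gene by gene over all 12 tumours. The 5 comparisons share tumours and are not independent. None of the 34 genes passed limma's test of that difference, where 0.0104% of all genes did. The median difference was -2.22, all 34 were negative (51.5% of all genes), and 1 gene, Adrb3, had an unadjusted p under 0.05 (6.33% of all genes). Adipoq was -3.05 (SE 1.99, limma adjusted p = 0.770), Plin1 -3.31 (SE 2.17), Cidec -3.19 (SE 1.87), Lep -2.60 (SE 1.99) and Fabp4 -3.11 (SE 1.71). Plin4 was -3.13 (SE 1.90), Pparg -2.09 (SE 1.24), Lipe -2.04 (SE 1.32), Car3 -2.50 (SE 2.01) and Ucp1 -2.85 (SE 3.42). DESeq2 on the recovered reads gave an adjusted p to 33 of the 34, all but Ucp1, and called 3, Adrb3, Aqp7 and Pck1, where it called 0.908% of all genes. EdgeR called 0 of the 34, with an unadjusted p under 0.05 for 23 (8.42% of all genes). The DESeq2 estimate for Pck1 was -6.70 (SE 1.60, DESeq2 adjusted p = 0.00581), and for Adrb3 -5.59 (SE 1.43, DESeq2 adjusted p = 0.0161). Without active week 12 replicate 3 DESeq2 called none of them, Pck1 being -4.34 (SE 1.62, DESeq2 adjusted p = 0.331), and limma's median over the 34 genes was -1.06. Endothelial markers had 8 of 8 differences between weeks negative (median -1.04), muscle markers 13 of 13 positive (8.32) and epithelial markers 8 of 8 positive (0.52), with 0 called in each list, and their part was not tested.

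In sedentary tumours, week 18 had lower estimates than week 12 without passing the test. Limma called 0 of the 34 genes and 0.00526% of all genes. The median log2 difference was -1.32 against -0.02 for all genes, and 32 of 34 were negative (52.7% of all genes). None of the 34 had an unadjusted p under 0.05 (3.72% of all genes), and edgeR and DESeq2 called 0 of them (DESeq2 gave Ucp1 no p). Cidec, Adipoq, Lep, Adrb3, Acvr1c, Cd36, Slc2a4, Car3 and Aoc3 were lower in every week 18 than in every week 12 sedentary tumour, 9 of 34 genes, where 6.02% of all genes were. Adipoq was -2.10 (SE 1.41, limma adjusted p = 1.00), Plin1 -2.07 (SE 1.53), Lep -1.93 (SE 1.40), Pparg -1.04 (SE 0.88) and Car3 -2.44 (SE 1.42). Cidec was -1.92 (SE 1.32), Plin4 -1.52 (SE 1.34), Fabp4 -1.72 (SE 1.21), Lipe -1.01 (SE 0.93) and Ucp1 1.10 (SE 2.42), and limma's adjusted p was 1.00 for all 34. Ucp1 and Dgat1 had the positive estimates, and that of Ucp1 rested on sedentary week 18 replicate 2, without which it was -1.59 (and -0.19 without sedentary week 12 replicate 2). Without sedentary week 18 replicate 1 the median over the 34 genes was -0.45. Muscle markers had 13 of 13 estimates negative (median -4.73), endothelial markers 8 of 8 (-0.38) and stromal progenitor markers 10 of 12 (-0.49), with 0 called in each list. Their part in the result was not tested.

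In active tumours the estimates between weeks were larger. All 34 genes had lower values at week 18 than at week 12 in the mean of log2 levels (52.5% of all genes), with a median log2 difference of -3.34 against -0.03 for all genes, and 26 of 34 had an unadjusted p under 0.05, as did 17.8% of all genes. Limma nevertheless called none of the 34, and 0.0156% of all genes, with adjusted p from 0.156 upwards. Adipoq was -5.15 (SE 1.41, limma adjusted p = 0.192), Plin1 -5.38 (SE 1.53), Cidec -5.10 (SE 1.33), Lep -4.53 (SE 1.41) and Fabp4 -4.83 (SE 1.21). Plin4 was -4.65 (SE 1.34), Car3 -4.94 (SE 1.42), Pparg -3.13 (SE 0.88), Lipe -3.05 (SE 0.93) and Ucp1 -1.75 (SE 2.42). For 24 of the 34 genes every active week 18 tumour lay below every active week 12 tumour, where 12.7% of all genes did so. The 10 that overlapped were Cidea, Npr3, Slc2a4, Acsl1, Gpd1, Agpat2, Dgat1, Thrsp, Adig and Ucp1. Leaving out active week 12 replicate 3, the highest tumour for 33 of the 34 genes, could not lower the count of 24. Without that tumour it was again 24 of the 34, against 16.9% of all genes. A list of 8 genes taken as restricted to adipocytes (Adipoq, Lep, Plin1, Cidec, Retn, Cfd, Adrb3 and Adig) had a median of -5.13, or -3.97 without that tumour. Adig's own values go against that name, since its ratio to Adipoq varied 72.3-fold over the tumours. Count models differed from each other here: DESeq2 called 30 as lower of the 33 to which it gave an adjusted p, where it called 6.25% of all genes as lower, and edgeR called 0. With DESeq2, Adipoq was -5.86 (SE 1.06, DESeq2 adjusted p = 1.72e-05), Gpd1, Agpat2 and Thrsp were not called, and Ucp1 was given no p. Without active week 12 replicate 3, DESeq2 called 14 as lower of the 32 with an adjusted p (all but Cidea and Ucp1), where it called 1.67% of all genes, and Adipoq was -4.03 (SE 1.01, DESeq2 adjusted p = 0.0105). Those 14 were Acvr1c, Adipoq, Adrb3, Aoc3, Aqp7, Cd36, Cfd, Cidec, Fabp4, Lep, Lpl, Pck1, Pparg and Retn. In limma's test without that tumour the median was -2.19, 32 of 34 were negative, none passed and Ucp1 was 0.33. Leaving out active week 12 replicate 2 instead gave 2 calls, Acvr1c and Adrb3, among 91 called of all 19169 genes tested. Endothelial markers had 8 of 8 estimates negative (median -1.49), stromal progenitor markers 11 of 12 negative (-1.23), muscle markers 13 of 13 positive (3.63) and epithelial markers 7 of 8 positive (0.57), with 0 called in each list. With active week 12 replicate 3 left out these medians were -0.84, -0.96, 3.47 and 0.19. Their part in the result was not tested.

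Compared with the sedentary week 12 tumours, the active week 18 tumours lay wholly lower for 28 of the 34 genes, as for 13.5% of all genes (Npr3, Gpd1, Agpat2, Dgat1, Thrsp and Ucp1 being the other adipocyte genes). Active week 18 replicate 1, the tumour with the least fat RNA, had 1.93% of the sedentary week 12 mean of Adipoq, 1.05% of that of Plin1 and 1.57% of that of Lep. The same tumour kept 19.9% for Pparg, 14.4% for Lipe, 75.0% for Dgat1 and 80.4% for Pnpla2.

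Other genes of fat cells that are not among the 34 were described by lists. Of 40 further genes of adipogenic transcription factors, lipogenesis, caveolae and insulin signalling, limma called 1 at week 12 and 0 in each other comparison. The called gene was Fitm1, a droplet-forming protein made mostly in skeletal muscle, which fell by 5.30 on the log2 scale in active tumours (SE 0.43, limma adjusted p = 0.0172), and 12 of 13 muscle markers were called lower there as well. The medians of the 40 genes were 0.52 for activity at week 12, -0.21 for activity at week 18, -0.37 for time in sedentary tumours and -0.96 for time in active tumours. Leaving out active week 12 replicate 3, they were -0.01 for activity at week 12 and -0.52 for time in active tumours. The carboxylesterase Ces1d, abundant in fat, had log2 differences of -2.63 (SE 0.96) for activity at week 18 and -5.56 (SE 1.20) for time in active tumours, neither called by limma. Mlxipl, the carbohydrate-response factor of lipogenesis, was -1.35 (SE 0.36) for activity at week 18, and Ces1f was -5.23 (SE 1.26) for time in active tumours. For the difference between weeks Fitm1 was 7.41 (SE 1.37) and Ces1d -4.22 (SE 1.69). For time in sedentary tumours Fitm1 was -4.32 (SE 0.97) and Plin2 -0.62 (SE 0.33), and limma called none of these. Of the 15 thermogenic genes listed, 14 were tested and none was called in any comparison. Their medians were -0.34 for activity at week 12 (-0.61 without active week 12 replicate 3) and -0.41 at week 18, where Otop1, a proton channel of brown fat, was -1.92 (SE 0.53, limma adjusted p = 0.824). Ebf2 was -1.06 (SE 0.60) there, and at week 12 Cox7a1 was -1.54 (SE 0.41) and Cpt1b -3.10 (SE 1.18). For the difference between weeks Fabp3 was 4.44 (SE 1.95) and Otop1 -1.59 (SE 0.75). For time, Pdk4 was -2.45 (SE 1.56) and Fabp3 -2.10 (SE 1.38) in sedentary tumours. In active tumours Ebf2 was -2.01 (SE 0.73) and Otop1 -1.13 (SE 0.53). Markers of stromal progenitors, the cells from which adipocytes arise, had medians of 0.31 (0.08 without active week 12 replicate 3) and -0.71 for activity at week 12 and week 18, with 0 of 12 called at either week.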

How the data were processed

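The 34 genes and every other list were chosen with earlier results of these data known. Per the file headers, the authors deposited, for each week, a normalized signal per gene and library, a log2 fold change, a p-value and an adjusted p-value, and the label descriptions name DEBrowser. Per the submitters' processing notes the build was mm10, and tumour RNA was extracted with TRIzol for a stranded mRNA kit, per the labels' protocols. The aligner, counter and annotation were not given in the sources used here. Within a library the deposited signal was a whole multiple of 1 step for 100% of values (tolerance 0.1 read), so it equals a read count over 1 factor. These factors matched median-of-ratios factors over all 12 tumours, and so both tables share a scale. In sedentary week 18 replicate 3 the step, 0.991, was too near 1 for a formal check. The tables of blood stem cells were not used.

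Tests used limma 3.58.1 (R 4.3.3) on log2(value + 1), for genes whose mean reached 1 in 1 or more of the groups compared, with Benjamini-Hochberg adjustment over all genes tested and a threshold of 0.05. Fold changes are on that scale, which understates low genes. Weeks were compared in 1 fit of the 12 tumours. Alternatives were edgeR 4.0.16 and DESeq2 1.42.0 on recovered reads, other pseudocounts, filters and scaling, leaving out each tumour, and replicate numbers as a block. DESeq2 without active week 12 replicate 3 was added after seeing the data. Folds with errors are given for 10 genes fixed by name (Adipoq, Lep, Plin1, Plin4, Cidec, Fabp4, Pparg, Lipe, Car3 and Ucp1) and for genes past the threshold, and of other lists for called genes or the 2 with the smallest p. At week 18 same-numbered tumours deviated together weakly (correlations 0.164, 0.159 and 0.139 over genes). They were set in pairs on that ground alone, as the labels state no pairing. At week 12 the correlations were -0.03, -0.10 and 0.09. Gene positions and exon lengths are from GENCODE M21. The code was tested on simulated data. Reads carry no molecular identifiers.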

Additional observations from a re-analysis of the deposited data

How the results depend on the processing

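No call on the 34 adipocyte genes was made by limma under any scaling, pseudocount or filter, and 781 of the alternative estimates for the 10 genes given with errors kept sign and side of the threshold, against 14 newly called, each with DESeq2 for time in active tumours, and 8 of opposite sign. For 6 more, all of Ucp1 with DESeq2, no adjusted p was given, and 1 of them had the opposite sign. Opposite signs were seen for Ucp1, Plin1 and Car3. At week 12 without active week 12 replicate 3, Plin1 was -0.14 (range over single omissions -0.14 to 2.17), Car3 -0.36 (-0.36 to 2.10) and Ucp1 -1.97 (-1.97 to 1.47), and Ucp1 was -1.18 without sedentary week 12 replicate 2 and -3.19 with DESeq2 lacking active week 12 replicate 3. Between weeks Ucp1 ranged from -1.59 to 2.60 in sedentary tumours (-0.19 without sedentary week 12 replicate 2) and from -3.11 to 0.33 in active ones, with 0.35 for DESeq2 lacking active week 12 replicate 3. The cause was not tested, other than that fewer tumours entered.

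Counts of all genes called depended on the tool. For activity at week 12 (99 genes with limma) DESeq2 called 208, or 254 without active week 12 replicate 3, and a fit of all 12 tumours 9. Single omissions gave 9 to 71. For activity at week 18 (0 genes) DESeq2 called 52 and a pseudocount of 0.1 gave 5, with 0 to 5 over omissions. For the difference between weeks (2 genes) DESeq2 called 172, or 146 without active week 12 replicate 3, and edgeR 0, with 0 to 23 over omissions. For time in sedentary tumours (1 gene) DESeq2 called 79, edgeR 0 and a pseudocount of 10 gave 31, with 1 to 2 over omissions. For time in active tumours (3 genes) DESeq2 called 1681, or 397 without active week 12 replicate 3, edgeR 0, and pseudocounts of 0.1 and 10 gave 6 and 0, with 0 to 91 over omissions. Of the adipocyte genes, DESeq2 called 30 for time in active tumours (14 without active week 12 replicate 3) and 3 for the difference between weeks, and limma 0 to 2 over omissions for time in active tumours. Their median was -5.13 for the 8 restricted genes in active tumours over time, and for the difference between weeks -3.68 with DESeq2 and -3.67 with edgeR.

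With the replicate block, limma called 0 genes for activity at week 12, 69 for the difference between weeks and 0 for time in active tumours. At week 18 the replicate block called no adipocyte gene, and 15 of the 34 had an unadjusted p under 0.05, as did 7.41% of all genes. That block treats tumours as matched by replicate number, which the labels do not state. It changed no other call on the 34 genes. With 3 tumours a group and 1 tumour often setting a mean, the medians moved with single omissions from 0.04 to 2.07 at week 12 and from -2.41 to -0.46 at week 18. Aqp7, Mrap and Ucp1 fell to 1 or 2 reads in some tumours, where counting error limits any fold.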
